A study of Mus musculus with 24 samples.

Results

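The expression of 10 astrocyte genes was followed through striatal RNA-seq of a Huntington's disease mouse. They were Slc1a2, Slc1a3, Glul, Gfap, Vim, Aqp4, Gja1, Aldh1l1, S100b and Sox9, chosen by symbol from textbook astrocyte markers with earlier results of these data known. Each of these 10 symbols matched 1 of the 24340 gene rows in every one of 6 pairwise tables. The study asked what RGFP109, a selective inhibitor of the histone deacetylases HDAC1 and HDAC3, does to gene expression in the striatum. Its 24 libraries, each from the striatum of a mouse, fell into 4 groups. All mice were males on a C57BL/6J background, aged 11 to 14 weeks when injections began and 14 to 17 weeks at sacrifice. R6/1 mice carried, in the hemizygous state, a transgene of exon 1 of human HTT with an expanded CAG repeat, and WT mice were their littermates without it. The WT-vehicle group had 5 libraries and the R6/1-vehicle group 6, both from mice injected intraperitoneally with vehicle, which was dimethyl sulfoxide diluted in saline. The WT-RGFP109 group had 6 libraries and the R6/1-RGFP109 group 7, both from mice given RGFP109 at 30 mg/kg, also intraperitoneally. Injections were given 5 times a week for 3 weeks, and the tissue was taken 18 h after the last one. The transgene is expressed widely, not in 1 cell type. The neurons and the glia of the R6/1 striata both carried it, and its level was not measured here.

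Astrocytes clear glutamate and potassium released by neurons, hold water and ion balance at the blood vessels, pass ions and metabolites to each other through gap junctions, and supply glutamine back to neurons. In the striatum they surround the projection neurons, the cells most affected in Huntington's disease. When astrocytes become reactive they typically raise intermediate filament genes such as Gfap and Vim, and a loss of glutamate transporter is a known feature of Huntington's disease models. Several of the 10 genes are also used by other cells: Vim by endothelial and ependymal cells, S100b and Glul by oligodendrocytes, and Sox9 by ependymal cells.

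The values were FPKM, fragments per kilobase of transcript scaled to the mapped fragments of the library, a level per transcript length that allows genes to be compared with each other. The tables held 1 FPKM value per group, made by the authors from all libraries of that group, with no value per library. No SD, interval or test could be computed from these group values, the authors' own test columns were not used, and so no difference below is given with a replicate check. The read depth behind each value is unknown. Differences are given as the log2 ratio of 2 group values after adding 0.05 FPKM, and "past the fold" means an absolute log2 ratio over 0.5, a linear ratio of 1.41. All 10 genes were above the minimum of 1 FPKM used for the background of all genes. The 6 tables were normalised separately, so levels in the 4 groups were put on a common scale by aligning their WT-vehicle values, which needed factors of 1.04 and 0.997, while each log2 ratio was taken within 1 table.

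Striatal and glial marker transcripts were present in all groups, and the 10 genes covered a wide range of levels. No gene of the marker lists used here was at 0 in any group, and the 8 striatal projection neuron markers, Ppp1r1b and Penk among them, summed to 3116 FPKM in WT-vehicle. In WT-vehicle the highest of the 10 genes was Glul at 504 FPKM, followed by Slc1a2 at 293, Slc1a3 at 180, S100b at 111, Gja1 at 66.7 and Gfap at 55.2 FPKM. The lower 4 were Aldh1l1 at 26.1, Vim at 19.8, Aqp4 at 19.3 and Sox9 at 7.99 FPKM, Vim and Aqp4 being too close to be ranked without replicate values. The 10 genes together made up 0.289% of all summed FPKM in WT-vehicle, 0.226% in R6/1-vehicle and, with RGFP109, 0.298% in WT and 0.233% in R6/1 mice.

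The loci and upstream sequences of 4 of these genes are shown first, since they stand for the 3 patterns in the data: Glul and Slc1a3 were lower in R6/1 mice, S100b was nearly level and Vim was higher. In mm10, Glul lies at chr1:153899926-153909723 on the plus strand, Slc1a3 at chr15:8634124-8710807 on the minus strand, S100b at chr10:76253836-76261319 on the plus strand and Vim at chr2:13574311-13582826 on the plus strand. The 250 bases before the start of each are given 5′ to 3′ on the gene's strand, from RefSeq on GRCm38.p6, the assembly of mm10. They span chr1:153899679-153899928, chr15:8710808-8711057, chr10:76253586-76253835 and chr2:13574061-13574310. The window of Glul ends just inside the locus given above, so its positions count from a slightly later start. Capitals mark matches to the motif letters listed after the sequences.
Glul: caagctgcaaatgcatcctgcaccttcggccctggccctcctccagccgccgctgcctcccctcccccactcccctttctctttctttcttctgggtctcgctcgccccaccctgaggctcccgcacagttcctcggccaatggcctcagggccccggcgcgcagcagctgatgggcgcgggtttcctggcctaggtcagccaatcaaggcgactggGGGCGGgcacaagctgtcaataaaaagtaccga
Slc1a3: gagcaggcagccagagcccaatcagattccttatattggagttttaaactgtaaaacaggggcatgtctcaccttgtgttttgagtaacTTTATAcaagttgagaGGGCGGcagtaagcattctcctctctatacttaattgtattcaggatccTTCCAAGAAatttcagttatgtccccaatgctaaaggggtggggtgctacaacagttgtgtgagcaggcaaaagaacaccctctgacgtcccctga
S100b: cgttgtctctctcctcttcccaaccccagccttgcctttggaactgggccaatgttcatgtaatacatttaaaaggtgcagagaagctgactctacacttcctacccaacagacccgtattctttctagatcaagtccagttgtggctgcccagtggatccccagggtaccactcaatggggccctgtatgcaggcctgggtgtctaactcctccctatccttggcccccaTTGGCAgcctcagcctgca
Vim: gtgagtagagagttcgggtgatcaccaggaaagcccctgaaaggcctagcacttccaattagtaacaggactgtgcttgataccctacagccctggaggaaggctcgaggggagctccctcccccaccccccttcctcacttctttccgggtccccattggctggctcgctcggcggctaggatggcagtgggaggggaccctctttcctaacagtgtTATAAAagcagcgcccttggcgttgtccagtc
Motifs were searched on both strands: the GC box GGGCGG, the NFI monomer site TTGGCA, the NFI dimer site (each arm of which shares TTGGC with the monomer site), the SOX site ACAATG, the STAT site TTCNNNGAA, the AP-1 site TGANTCA, the CRE TGACGTCA and the TATA box TATAAA. Vim held a TATA box at -32 to -27 from its start, letters that 12.4% of 32851 mouse promoter windows also held. Glul held a GC box at -33 to -28 (32.7% of windows), and S100b an NFI monomer site at -19 to -14 (12.3%). Slc1a3 held a GC box at -145 to -140, a STAT site at -96 to -88 (7.02%) and a reverse-strand TATA box at -161 to -156. Thus the 4 windows shared no motif across all of them, and Glul and Slc1a3, both lower in R6/1 mice, shared the GC box. Of the other lower genes with a window, Aldh1l1 held a GC box and Slc1a2, Gfap and Gja1 did not. Such matches are letters in a window and were not tested as binding sites.

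Of the other 6 genes, Gfap lies at chr11:102887336-102897200, Slc1a2 at chr2:102658683-102790784, Aqp4 at chr18:15389394-15410982, Gja1 at chr10:56377300-56390419, Aldh1l1 at chr6:90550848-90599171 and Sox9 at chr11:112782210-112787757. The windows of Gja1 and Aldh1l1 held an AP-1 site and a GC box, respectively, and none of the letters searched was in those of Gfap and Slc1a2. The window of Slc1a2, chr2:102706188-102706437, lies inside the locus given here. GENCODE M21 places other genes over 7 of the 10 loci. A lincRNA on the opposite strand, Gm26668, covers all 9865 bases of Gfap, and Dip2a shares 1891 bases with S100b on the opposite strand. Whether the counting used strand was not stated, so reads of overlapping genes cannot be told apart and the values of these genes carry that uncertainty.

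The first comparison asked how the R6/1 genotype changed expression without the drug, by setting R6/1-vehicle against WT-vehicle. Of the 10 genes, 8 were lower in R6/1-vehicle, beside 50.9% of 13659 genes. Lower past the fold were 3, Slc1a2, Glul and Sox9, where 14.3% of all genes were past the fold, 10.3% lower and 3.98% higher. None was higher past the fold. Their median log2 ratio was -0.36, beside -0.0067 for all genes. In bulk tissue, fewer astrocytes and less RNA per astrocyte cannot be told apart.

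Slc1a2 and Glul, which handle glutamate, had the lowest log2 ratios of the 10 genes in vehicle mice. Slc1a2, which encodes GLT-1, the main glutamate transporter of the forebrain, was at 293 FPKM in WT-vehicle and 177 in R6/1-vehicle. With RGFP109 it was at 296 FPKM in WT and 184 in R6/1 mice, so both R6/1 groups were far below both WT groups. Its log2 ratio was -0.73 in vehicle mice, a linear ratio of 0.604, and 5.67% of all genes had a ratio at or below it. In RGFP109 mice the log2 ratio was -0.68, with 5.25% of genes at or below.

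Glul, the glutamine synthetase that turns the captured glutamate into glutamine, was at 504, 322, 507 and 355 FPKM in the WT-vehicle, R6/1-vehicle, WT-RGFP109 and R6/1-RGFP109 groups. It was lower in both R6/1 groups, with log2 ratios of -0.64 in vehicle and -0.51 in RGFP109 mice, and its rank among all genes by FPKM went from 74 in WT-vehicle to 122 in R6/1-vehicle. Slc1a3, which encodes GLAST, the other astrocytic glutamate transporter, was at 180, 137, 188 and 141 FPKM in the same order. This is a smaller difference than that of Slc1a2, with log2 ratios of -0.40 and -0.42, neither past the fold. The Slc1a2 to Slc1a3 ratio of FPKM was accordingly 1.63 in WT-vehicle and 1.57 in WT-RGFP109, against 1.29 in R6/1-vehicle and 1.31 in R6/1-RGFP109.

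The 2 intermediate filament genes differed in opposite directions between genotypes. Gfap, the filament protein most used as an astrocyte marker, was at 55.2 FPKM in WT-vehicle, 46.3 in R6/1-vehicle and, with RGFP109, 49.9 in WT and 38.1 in R6/1 mice. The R6/1 values were the lower ones, with log2 ratios of -0.26 in vehicle and -0.39 in RGFP109 mice, neither past the fold. Vim, the vimentin filament gene, was at 19.8, 26.9, 17.4 and 26.4 FPKM in the same order, higher in both R6/1 groups. Its log2 ratio of 0.44 in vehicle mice was above those of 94.8% of all genes, and that of 0.60 in RGFP109 mice was above those of 97.5% and past the fold. The Gfap to Vim ratio of FPKM was 2.80 and 2.87 in the WT groups and 1.72 and 1.44 in the R6/1 groups. Their summed level was 74.99 FPKM in WT-vehicle and 73.1 in R6/1-vehicle, and 67.3 in WT-RGFP109 and 64.6 in R6/1-RGFP109.

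The genes of water, gap junction and folate handling were also lower in R6/1 mice, with no ratio past the fold in vehicle mice. Aqp4, the water channel of the perivascular endfeet, was at 19.3, 14.9, 21.1 and 14.4 FPKM in the WT-vehicle, R6/1-vehicle, WT-RGFP109 and R6/1-RGFP109 groups. Its log2 ratio was -0.37 in vehicle and -0.55 in RGFP109 mice, past the fold in the latter only. Gja1, which encodes the gap junction protein connexin 43, was at 66.7, 52.2, 67.5 and 49.9 FPKM in the same order, with log2 ratios of -0.35 and -0.44. Aldh1l1, a folate enzyme used as a pan-astrocyte marker, was at 26.1, 21.2, 24.7 and 19.0 FPKM, with log2 ratios of -0.30 and -0.38. In each of these 3 genes both R6/1 values were below both WT values.

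S100b and Sox9 departed from the other genes in different ways. S100b, a calcium-binding protein of astrocytes and some oligodendrocytes, was at 111, 115, 112 and 114 FPKM, with log2 ratios of 0.05 and 0.03, the flattest of the 10 profiles. Its highest and lowest group values differed by a factor of 1.04, against 1.67 for Slc1a2. Sox9, the transcription factor that specifies and marks astrocytes, was at 7.99 FPKM in WT-vehicle, 5.60 in R6/1-vehicle and, with RGFP109, 6.52 in WT and 5.39 in R6/1 mice. Its log2 ratio of -0.51 in vehicle mice was just past the fold, and Slc1a3 at -0.40 was the nearest member short of it among the lower genes. With a pseudocount of 1 FPKM the ratio of Sox9 was -0.45 and no longer past the fold.

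**Figure D1:**
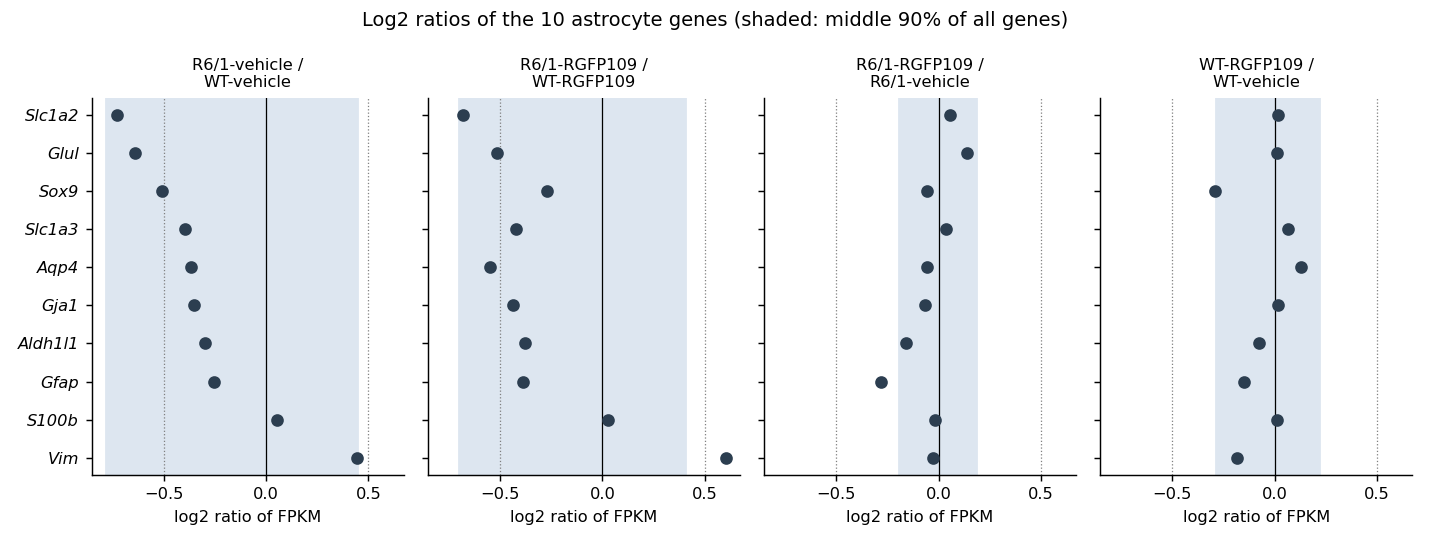
Log2 ratio of FPKM (horizontal axis) of the 10 genes (rows) in 4 comparisons (panels), with the middle 90% of all genes shaded and dotted lines at an absolute log2 ratio of 0.5. In the 2 genotype panels the points run from -0.73 and -0.68 for Slc1a2 to 0.44 and 0.60 for Vim, whereas in the 2 RGFP109 panels all points are between -0.29 and 0.14.

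The second genotype comparison set R6/1-RGFP109 against WT-RGFP109 and shared no library with the first. Of the 10 genes, 3 were lower past the fold, Slc1a2, Glul and Aqp4, beside 8.75% of 13651 genes, and 1 was higher, Vim, beside 3.56%, or 12.3% in either direction. The direction was that of the vehicle mice in 10 of 10 genes, and all genes together kept their sign in 82.8% of 13460. The median log2 ratio was -0.40, beside 0.011 for all genes.

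The difference between the 2 genotype ratios, RGFP109 mice minus vehicle mice, ranged from -0.18 for Aqp4 to 0.24 for Sox9 on the log2 scale, with a median of -0.026. Over all genes its middle 90% ran from -0.28 to 0.33, so all 10 genes were inside that range. Vim was at 0.16, Glul at 0.13 and Gfap at -0.13. These differences could not be tested, and no gene was shown to respond to the genotype differently with the drug.

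**Figure D2:**
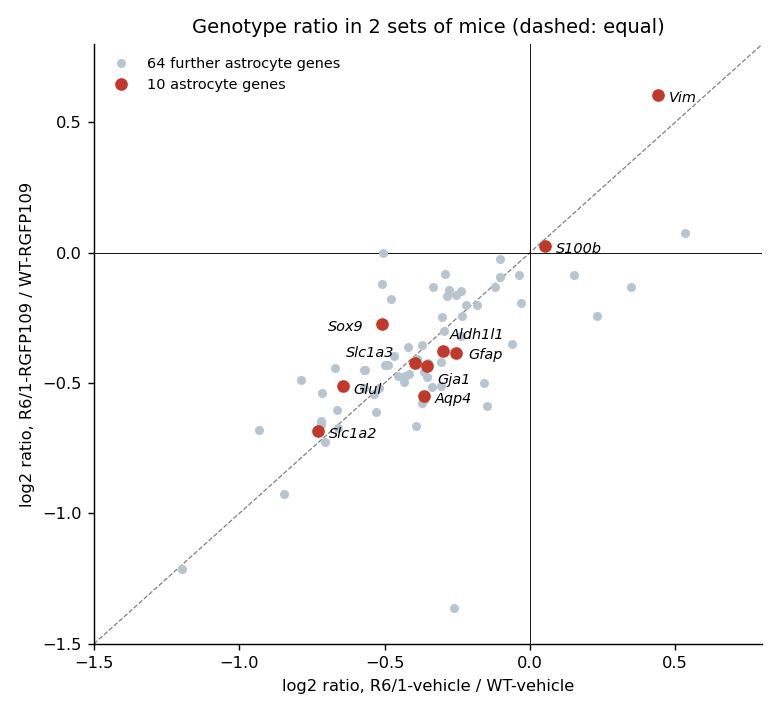
Log2 ratio of R6/1 to WT in vehicle mice (horizontal axis) against that in RGFP109 mice (vertical axis) for the 10 genes (red) and 64 further astrocyte genes (grey), each point being a gene and the dashed line marking equal ratios. Most points lie in the lower left quadrant, Vim, S100b and Zbtb20 lie in the upper right, and the lowest grey point on the vertical axis is Fabp7 at -1.36.

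The comparison of R6/1-RGFP109 with R6/1-vehicle asked what the drug did in the disease model. None of the 10 genes was past the fold, where 3.00% of 13610 genes were past it, 1.57% higher and 1.43% lower. The highest log2 ratio was 0.14 for Glul, from 322 to 355 FPKM on the common scale, which left it below both WT groups. The lowest was -0.28 for Gfap, from 46.3 to 38.1 FPKM, farther from the WT-vehicle level than in R6/1-vehicle. Aldh1l1 was at -0.16, and the other 7 genes were between -0.07 and 0.06. A ratio below that of Gfap was held by 2.94% of all genes, below that of Aldh1l1 by 6.76% and below that of Glul by 92.0%. Among genes with a mean of at least 10 FPKM these shares were 1.88%, 3.23% and 95.7%. The median was -0.04, beside 0.0033 for all genes.

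In WT mice, WT-RGFP109 against WT-vehicle, again none of the 10 genes was past the fold, beside 3.90% of 13621 genes, 1.74% higher and 2.16% lower. Sox9 at -0.29, Vim at -0.18 and Gfap at -0.15 had the lowest log2 ratios, and Aqp4 at 0.13 the highest. A ratio below that of Sox9 was held by 4.85% of all genes. Of the 10 genes, 7 had the same sign in both RGFP109 comparisons, beside 49.9% of all genes and 26 of the 64 genes of a wider astrocyte list described below, and Gfap, Aldh1l1, Vim and Sox9 were below 0 in both. The 5 ependymal markers, cells that also use Sox9 and Vim, summed to 39.6 FPKM in WT-vehicle and 25.3 in WT-RGFP109, with all 5 lower past the fold, and to 32.3 FPKM in R6/1-vehicle and 29.9 in R6/1-RGFP109. Their part in the values of Sox9, Vim and Gfap was not tested.

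In the 2 comparisons across both factors, Slc1a2 and Glul were again past the fold. R6/1-RGFP109 against WT-vehicle had 4 of the 10 genes past the fold, beside 14.1% of all genes (10.1% lower and 3.93% higher), all of them lower: Slc1a2 at -0.67, Sox9 at -0.57, Gfap at -0.53 and Glul at -0.50. R6/1-vehicle against WT-RGFP109 had 3 past the fold, beside 12.4% of all genes (8.85% lower and 3.60% higher): Slc1a2 at -0.74 and Glul at -0.65 were lower and Vim at 0.63 was higher. Both comparisons share their groups with those above and are no separate evidence.

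A wider list of 64 astrocyte genes, all above 1 FPKM, was then read by role, to set the 10 genes beside others of the cell type. Both lists were chosen with earlier results of these data known, so a likeness between them is no independent support. In vehicle mice, 19 of 64 were lower past the fold in R6/1 and 1 was higher, beside the 10.3% and 3.98% of all genes. The median log2 ratio was -0.37, close to the -0.36 of the 10 genes, and 60 of 64 were below 0, beside 50.9% of all genes. In RGFP109 mice, 20 were lower past the fold and none was higher, beside 8.75% and 3.56% of all genes. Of the 64, 63 were below 0, beside 48.2% of all genes, and the median was -0.43. The sign was shared in 61 of 64 genes.

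Among the metabolic genes, all 14 were below 0 in vehicle mice, beside 50.9% of all genes, and 5 were past the fold, beside 14.3%. Dio2, the deiodinase that makes active thyroid hormone in astrocytes, was the lowest of the 64 in vehicle mice at 12.4 FPKM in WT-vehicle, 5.37 in R6/1-vehicle and, with RGFP109, 13.8 in WT and 5.90 in R6/1 mice. Its log2 ratio was -1.20 in vehicle and -1.21 in RGFP109 mice, a genotype difference more than 1 log2 unit in both. Crym, a thyroid hormone binding protein, was at -0.67 and -0.44. Aldoc, an astrocytic glycolytic enzyme, was at 471 and 317 FPKM in WT-vehicle and R6/1-vehicle, with log2 ratios of -0.57 and -0.52. The glycogen-targeting phosphatase subunits Ppp1r3g and Ppp1r3c were at -0.66 and -0.52 in vehicle and at -0.67 and -0.52 in RGFP109 mice. The most abundant of the role, the metallothioneins Mt3 and Mt1, were within the fold at -0.22 and -0.50 in vehicle mice.

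The transcription factors held the widest spread of the 7 roles in vehicle mice. Id4, an inhibitor of basic helix-loop-helix factors, was at 61.7 FPKM in WT-vehicle and 34.3 in R6/1-vehicle, with log2 ratios of -0.85 in vehicle and -0.93 in RGFP109 mice. Hes5, a Notch target, was at -0.72 and -0.66, and Lhx2 at -0.79 and -0.49. Nfib, of the NFI family that drives astrocyte differentiation, was just past the fold in vehicle mice at -0.50, and at 6.17 FPKM in both groups of RGFP109 mice. Zbtb20, the only one of the 64 higher past the fold, was at 0.53 in vehicle and 0.07 in RGFP109 mice, with only 1.44 FPKM in WT-vehicle. Thus Id4 and Hes5 had like ratios in both sets of mice, and Nfib and Zbtb20 did not.

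Secreted and surface proteins were lower in most cases. Among 11 secreted genes, Chrdl1 at -0.93, Mfge8 at -0.72, Htra1 at -0.72 and Apoe at -0.57 were past the fold in vehicle mice, and Apoe, the main brain apolipoprotein, was at 1308 FPKM in R6/1-vehicle against 1940.3 in WT-vehicle. Cst3, the protease inhibitor cystatin C and the most abundant of the role, was at -0.23. All 11 receptor and surface genes were below 0 in vehicle mice, beside 50.9% of all genes. They included Grm3, a metabotropic glutamate receptor, at -0.70, the thyroid hormone transporter Slco1c1 at -0.66 and the growth factor receptor Fgfr3 at -0.57. In RGFP109 mice these 3 were at -0.73, -0.61 and -0.45, and Gpr37l1 and Ntsr2, the most abundant of the role, were at -0.47 and -0.50.

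Ion, amino acid and junction genes had the medians nearest to 0 in vehicle mice, at -0.31, -0.21 and -0.28, and were at -0.41, -0.40 and -0.14 in RGFP109 mice. All 10 ion and water genes were below 0 in both genotype comparisons, beside 50.9% and 48.2% of all genes. Ttyh1, at -0.54 in each, was the only one past the fold in vehicle mice. Of 6 amino acid transporters, Slc38a3, which exports glutamine, was at -0.53 and -0.61, whereas the GABA transporter Slc6a11 was at -0.06 in vehicle and -0.35 in RGFP109 mice. The filament gene Synm was at -0.51 in vehicle and -0.12 in RGFP109 mice, and the junction genes Cldn10 and Gjb6 were at -0.30 and -0.10 in vehicle mice.

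**Figure D3:**
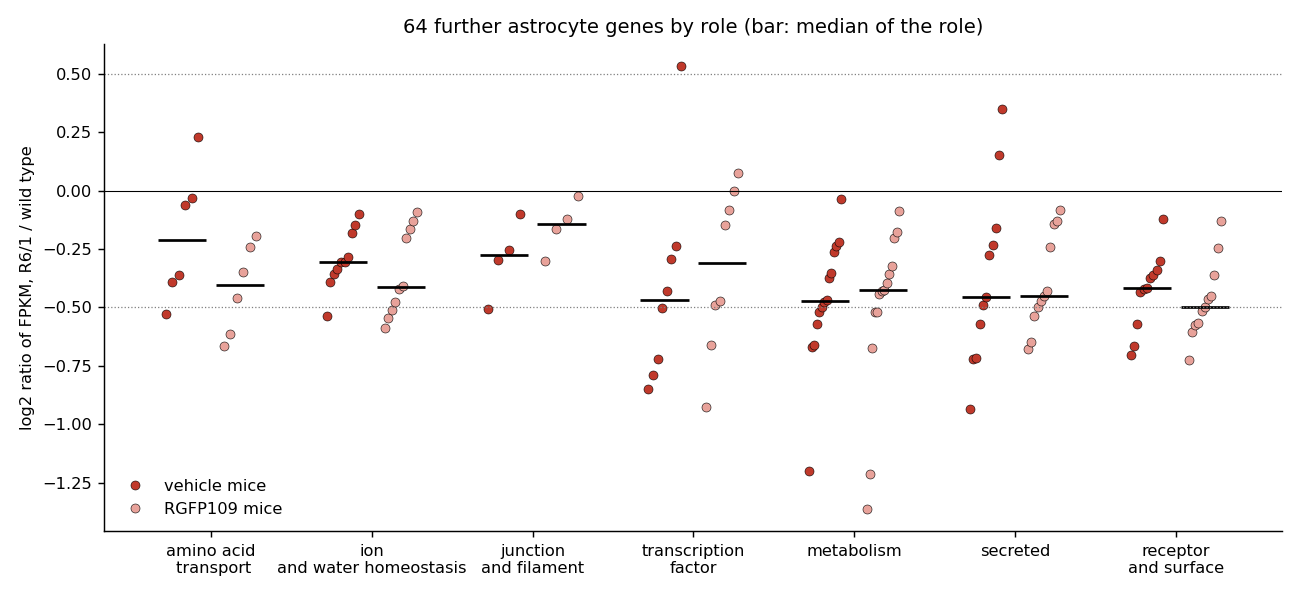
Log2 ratio of FPKM, R6/1 to WT (vertical axis), of 64 astrocyte genes grouped by role (horizontal axis), in vehicle mice (dark) and RGFP109 mice (light), each point being a gene, bars the median of the role and dotted lines the fold of 0.5. The medians of all 7 roles are below 0 in both sets of mice, and the dark point above the upper line is Zbtb20.

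RGFP109 left the wider list near 0 in R6/1 mice, with none of 64 genes past the fold, beside 3.00% of all genes, and a median of -0.03. In WT mice the median was -0.01 and 1 of 64 genes was past the fold, beside 3.90% of all genes. It was Fabp7, a brain fatty acid binding protein of radial glia and astrocytes, named after its value was seen. It was at 40.9 and 34.1 FPKM in WT-vehicle and R6/1-vehicle and at 74.3 and 28.8 FPKM in WT-RGFP109 and R6/1-RGFP109, so WT-RGFP109 stood apart with a log2 ratio of 0.86 to WT-vehicle.

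Genes described as raised in reactive astrocytes were divided in direction. Of a list of 34, 17 were above 1 FPKM in the comparison of vehicle mice, and the other 17 are not counted here. The list holds pan-reactive genes and 2 classes named A1 (after inflammation) and A2 (after ischaemia). In vehicle mice 3 were higher past the fold, beside 3.98% of all genes, all of A1: H2-D1, a class I histocompatibility gene, at 17.0 and 25.7 FPKM in WT-vehicle and R6/1-vehicle, the interferon-induced Gbp2 at 1.03 and 1.54, and the complement inhibitor Serping1 at 2.57 and 3.75. H2-D1 and Gbp2 were also higher past the fold in RGFP109 mice, beside 3.56% of all genes, with log2 ratios of 0.60 and 0.65. Gbp2 was at only 0.77 FPKM in WT-RGFP109, and Serping1 had a log2 ratio of 0.21 in RGFP109 mice.

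Another 3, H2-T23 at -0.51, Ptgs2 at -0.97 and S100a10 at -0.56, were lower past the fold in vehicle mice, beside 10.3% of all genes. In RGFP109 mice 3 were lower past the fold, beside 8.75% of all genes. They were Ptgs2 at -0.80, S100a10 at -0.51 and the pan-reactive Aspg, named after its value was seen, at -1.02. H2-D1 and H2-T23 belong to a family of near-identical genes among which reads can be split, so both values are uncertain. The most abundant pan-reactive genes, Serpina3n and Cp, were at 0.20 and 0.26 in vehicle mice, and Fkbp5 of A1 and Tm4sf1 of A2 were at -0.08 and -0.12. Several of these genes are also used by microglia, neurons or vessels. Gfap was thus lower, Vim higher and the reactive list divided, with a median log2 ratio of -0.08 over the 17 genes.

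Markers of other cells also differed between genotypes, and these values stand beside all the astrocyte results. The 8 projection neuron markers were all lower past the fold in R6/1-vehicle, beside 10.3% of all genes. Their median log2 ratio was -1.45, with a summed level of 1080 FPKM against 3116 in WT-vehicle. The 8 microglial markers, C1qa among them, were all below 0, beside 50.9% of all genes, and none was past the fold, beside 14.3%. Their median was -0.25, with sums of 235 and 269 FPKM in R6/1-vehicle and WT-vehicle. The 6 general neuron markers had a median of -0.24, the 7 endothelial and pericyte markers above 1 FPKM -0.27 and the 4 oligodendrocyte precursor markers -0.28. In RGFP109 mice the same medians were -1.47 for projection neurons, -0.27 for microglia and -0.28 for general neurons. The astrocyte medians of -0.36 and -0.40 were therefore lower than those of microglia and general neurons and far less low than that of projection neurons. In vehicle mice the oligodendrocyte, neocortical neuron and choroid plexus medians, at -0.66, -0.69 and -1.03, were also lower than the astrocyte median. In RGFP109 mice these 3 were at -0.12, -0.13 and -1.32. None of these differences between lists could be tested.

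Other lists had unlike medians in the 2 genotype comparisons. The 8 oligodendrocyte markers, Mbp among them, had a median log2 ratio of -0.66 in vehicle mice and -0.12 in RGFP109 mice, and summed to 4768, 2678, 3706 and 3009 FPKM in the WT-vehicle, R6/1-vehicle, WT-RGFP109 and R6/1-RGFP109 groups. Neocortical neuron markers had medians of -0.69 and -0.13. Choroid plexus markers, Ttr at their head, summed to 1477, 627, 320 and 39.0 FPKM, and meningeal markers to 13.4, 12.7, 9.55 and 9.74 FPKM, while the 5 progenitor markers of the subventricular zone, some of them shared with astrocytes, summed to 12.7, 14.4, 12.8 and 15.1 FPKM. Neocortex, choroid plexus and ependyma border the striatum, and their part in the astrocyte values was not tested.

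**Figure D4:**
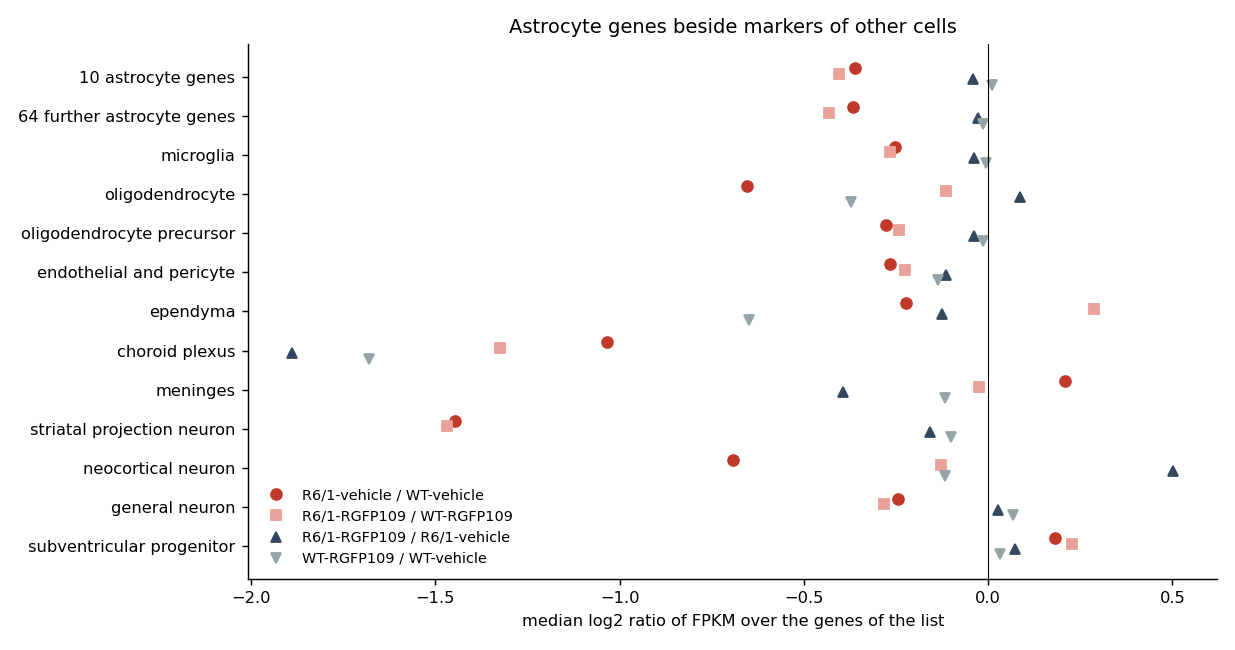
Median log2 ratio of FPKM (horizontal axis) over the genes of each list (rows) in 4 comparisons (symbols), counting genes above 1 FPKM. The 2 astrocyte rows have both genotype symbols between -0.43 and -0.36 and both RGFP109 symbols near 0. By contrast, the oligodendrocyte, ependymal, choroid plexus and neocortical neuron rows are spread. The neocortical neuron row has its RGFP109 symbols at 0.50 in R6/1 mice and -0.12 in WT mice.

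Genes with the most similar pattern were sought for each of the 10 among 7588 genes with a mean of at least 10 FPKM, by the Euclidean distance of centred log2 FPKM over the 4 groups, a measure that rests on 4 values. The nearest to Aqp4 were Ednrb, an astrocytic endothelin receptor, at a distance of 0.025, and Timp4, a metalloproteinase inhibitor, at 0.028. Those nearest to Slc1a2 were Plch2 and Gpcpd1 (0.049 and 0.052), to Glul Plekho1 and Etv5 (0.024 and 0.035), and to Vim Macrod1 and Tspan6 (0.017 and 0.064). Neuronal genes were among the nearest as well: Snap25, a synaptic vesicle fusion protein, stood first for Slc1a3 at 0.021, and Syt17 and Neto1 stood first for Gja1, both at 0.014. The nearest to Gfap was Mir6236 at 0.034, followed by Scrt2 at 0.091, the largest of the second distances here, and to Aldh1l1 they were Tpst1 and Drc1, both at 0.014. For S100b they were Ankrd46 and Vps4b (0.0046 and 0.0058), and for Sox9 Efnb3 and C1ql3 (0.029 and 0.045).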

How the data were processed

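Striatal RNA was sequenced from 24 libraries in 4 groups, grouped by the sample labels, as single reads of 51 bases from 380 ng of total RNA, in 2 pools of 12 libraries. The study's methods place libraries of all 4 groups in both pools, in nearly equal numbers. The labels do not assign single libraries to pools, and the values are pooled over both, so the effect of pool was not tested. The authors aligned reads to mm10 and deposited FPKM values, 1 per gene and group, in 6 pairwise Cuffdiff tables. The submitters' processing notes name STAR 2.5.0b, Cufflinks 2.2.1 and Cuffdiff. FPKM removes gene length and depth, so a value is relative to all other transcripts, and pooling removes the spread between mice. The tables also hold the authors' fold changes, test statistics, p-values, q-values and calls, which were not used.

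Here log2((FPKM + 0.05)/(FPKM + 0.05)) was computed for each table with Python 3.11.15, pandas 2.3.3 and numpy 2.4.6, and drawn with matplotlib 3.10.9. Genes with a mean of at least 1 FPKM in a table formed the background. The code was tested on simulated data. The members and lists were chosen with earlier results of these data known. Named genes were all 10 members. From the wider and reactive lists they were at most 5 a role past the fold in vehicle mice and the 2 with the highest mean FPKM, and from other cells at most the 2 highest. Each member also had its 2 nearest patterns. Some genes that this rule names are not reported here. Alternatives were other pseudocounts, filters, folds, centring and scaling. RefSeq held promoter windows for 8 members. Mouse Htt does not report the transgene, so the genotype was not checked from these tables.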

Additional observations from a re-analysis of the deposited data

How the results depend on the processing

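The tables hold pooled group values, so leaving out a library was not possible, and depth sets no stated limit because no counts were used. No paired analysis was possible because each group is 1 pooled value with no replicate. The count of the 10 genes past the fold depended on the fold chosen. At an absolute log2 ratio over 0.25 it was 9 for genotype in vehicle mice, 9 for genotype in RGFP109 mice, 1 for RGFP109 in R6/1 mice, 1 for RGFP109 in WT mice, 9 for R6/1-RGFP109 against WT-vehicle and 6 for R6/1-vehicle against WT-RGFP109. At an absolute log2 ratio over 1 it was 0 in these comparisons. The share of all genes past these other folds was not computed, so these counts have no background to be read against. For genotype in vehicle mice, the lower and upper quartiles of all genes were -0.22 and 0.17. With a pseudocount of 1 FPKM, Sox9 was at -0.45 in vehicle mice and at -0.49 for R6/1-RGFP109 against WT-vehicle, no longer past the fold. All 240 log2 ratios of single members under other pseudocounts, centring and routes through other tables kept their direction and were within 0.1 of the value reported, as did all 24 member medians. Routes through other tables reuse the same pooled group values, and centring subtracts a small median, so neither setting could move a value much. This closeness therefore says nothing of the spread between mice. Of 492 list medians, 468 were within 0.1 and 24 were not. The sign differed in 14, of which the pan-reactive genes in the genotype comparison of RGFP109 mice were farthest from 0, at 0.22 with the filter on low values and -0.19 without it.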

Other observations

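Potassium handling genes of the wider list were not among those named by rule and were chosen after their values were seen. Kcnj10, the inward rectifier Kir4.1 through which astrocytes take up potassium, was at 43.0 FPKM in WT-vehicle, 32.8 in R6/1-vehicle and, with RGFP109, 43.3 in WT and 32.7 in R6/1 mice. Its log2 ratio of R6/1 to WT was -0.39 in vehicle and -0.41 in RGFP109 mice, and its log2 ratio with RGFP109 was -0.01 in R6/1 and 0.01 in WT mice. Kcnj16, which encodes its partner Kir5.1, was at 5.83, 5.25, 6.81 and 4.51 FPKM in the same order of groups, with genotype ratios of -0.15 and -0.59.

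Of 4 genes of phagocytosis and of synapse support, also chosen after their values were seen, all but Sparc were lower in R6/1-vehicle. Mertk, a receptor with which astrocytes engulf debris, was at 13.5 and 10.1 FPKM in WT-vehicle and R6/1-vehicle, a log2 ratio of -0.42, whereas Megf10, another such receptor, was at 5.79 and 5.32 FPKM, a log2 ratio of -0.12. Sparcl1, which encodes the synapse-promoting protein hevin, was at 647 and 473 FPKM, a log2 ratio of -0.45. Sparc, its relative, was at 134 and 149 FPKM in vehicle mice, a log2 ratio of 0.15, and at -0.08 in RGFP109 mice.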
